A study of Mus musculus with 9 samples.

Results

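Interneurons that arise in the medial ganglionic eminence (MGE), a progenitor zone at the base of the embryonic forebrain, were followed through 9 of their genes: Lhx6, Lhx8, Sox6, Maf, Npas1, Nxph1, Sst, Npy and Cort. These were taken by gene name from the 22496 genes of 1 deposited table and the 23624 genes of another, and all 9 were present in both. They were measured by bulk RNA sequencing of cortex dissected at postnatal day 0. There were 3 ShhN IUE libraries, 3 SmoM2 libraries and 3 wild-type libraries, with 15376071 to 26923127 counts each. In the ShhN IUE mice, ShhN, the signalling amino-terminal piece of Sonic hedgehog, was introduced by in utero electroporation. The SmoM2 mice carried hGFAP-Cre, in which the human GFAP promoter drives Cre recombinase, and 1 conditional copy of SmoM2, an activated form of the signal transducer Smoothened. The wild-type mice were littermates, and every group had the same mixed background of C57BL/6J, 129S6 and CD1. The labels do not say from which intervention's litters the wild-type mice came, so what litter does and what the intervention does cannot be told apart. No group received a control electroporation, so what ShhN does and what electroporation does cannot be told apart. Whether each library is its own animal or litter is not stated in the labels; the p-values thus reflect spread among libraries, which may be technical.

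In the embryo, Sonic hedgehog maintains the transcription factor Nkx2-1 in MGE progenitors, and their daughters switch on Lhx6 as they leave the cell cycle. Some of them settle in the striatum and pallidum, and others migrate into the cortex, where they become the interneurons that later make the peptide somatostatin or the calcium-binding protein parvalbumin. At birth many are still migrating, and peptide genes such as Sst and Npy are already on, while Pvalb comes on later.

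The interventions were visible in the signalling genes. The count of Shh was 51, 52 and 455 in the ShhN IUE libraries, against 36, 62 and 31 in wild type, so only the third ShhN IUE library stood above every wild-type library by a wide margin. Gli1, a target that the pathway switches on, was at 26.0, 27.7 and 68.9 CPM (counts scaled by TMM to a common library size, per 1000000) in the ShhN IUE libraries, against 5.65, 9.13 and 7.75 CPM in wild type. In the SmoM2 libraries Gli1 was at 47.3, 42.7 and 49.96 CPM, against 5.63, 9.14 and 7.71 CPM in wild type. ShhN IUE library 3 therefore stood apart in Shh and Gli1, and the changes of the 9 genes in ShhN IUE are given with and without it. The same 3 wild-type libraries were quantified anew for each deposited table, and each intervention was compared with the wild type of its own table. The summed wild-type counts of 6 of the 9 genes agreed between the tables within 0.1 on the log2 scale, while those of Lhx6, Sox6 and Cort did not.

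The sequences below show how the 2 closest relatives among the peptide genes match and what lies upstream of Sst, which fell in ShhN IUE cortex, and of Npy, which did not pass the test there. Sst encodes the precursor of somatostatin and Cort that of cortistatin, a related peptide that binds the same receptors. Both precursors end in a near-identical cyclic peptide, whose coding bases are given from GENCODE M21 transcripts as 12 codons. Capitals mark bases that are the same in both genes, which was the case for 30 of 36 bases (83.3%).
Sst, codons 105 to 116 of 116: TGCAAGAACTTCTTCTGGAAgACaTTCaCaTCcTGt
Cort, codons 97 to 108 of 109: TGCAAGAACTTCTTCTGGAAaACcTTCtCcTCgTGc

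The 250 bases before the annotated start were taken from RefSeq on GRCm38.p6, which had entries for 8 of the 9 genes, some of them with several starts. They were searched on both strands for a cAMP response element (TGACGTCA), a homeodomain core (TAATTA), a SOX core (ACAATG), a Maf half-site (TGCTGAC) and a GLI site (TGGGTGGTC). The Sst window held the cAMP response element at positions -48 to -41 from the start, marked in capitals, where 1.55% of 32851 such windows hold one anywhere. The Npy window held none of the 5 motifs.
Sst, chr16:23890845-23891094, minus strand: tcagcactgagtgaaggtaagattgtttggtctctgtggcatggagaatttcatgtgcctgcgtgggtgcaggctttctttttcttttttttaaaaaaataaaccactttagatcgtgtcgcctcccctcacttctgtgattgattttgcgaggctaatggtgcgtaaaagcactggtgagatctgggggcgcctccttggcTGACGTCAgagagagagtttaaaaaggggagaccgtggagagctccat
Npy, chr6:49822460-49822709, plus strand: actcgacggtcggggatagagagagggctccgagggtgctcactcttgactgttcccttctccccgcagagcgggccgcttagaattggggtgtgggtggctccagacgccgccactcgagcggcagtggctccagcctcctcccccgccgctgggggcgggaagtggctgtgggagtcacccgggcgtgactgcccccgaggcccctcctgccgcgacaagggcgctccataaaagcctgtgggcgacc

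The homeodomain core lay in the Cort window, at -85 to -80, and 4.84% of all windows hold it. The SOX core, present in 10.7% of windows, lay in 1 of the windows of Lhx6 and in 2 of those of Sox6. Neither the Maf half-site, in 3.81% of windows, nor the GLI site, in 0.225%, lay in any window of the 8 genes. These matches describe the letters of the windows only.

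In ShhN IUE cortex, 5 of the 9 genes fell and 1 rose against wild type at an adjusted p of at most 0.05, by edgeR's quasi-likelihood test with Benjamini-Hochberg adjustment over 16180 genes. Of all genes tested, 17.2% fell and 16.1% rose. The genes that fell were Lhx6, Lhx8, Maf, Nxph1 and Sst, Sox6 rose, and Npy, Npas1 and Cort did not pass the test. The median log2 fold change of the 9 was -0.84, against -0.00 over all genes. In SmoM2 cortex, 7 of the 9 fell and 0 rose, where 9.29% of 16485 genes fell and 9.59% rose. The genes that fell were Lhx6, Lhx8, Maf, Npas1, Nxph1, Sst and Npy, and the median log2 fold change of the 9 was -0.96, against -0.01 over all genes. Groups fell apart without overlap for the same 5 lower genes and 1 higher gene in ShhN IUE, where 24.9% of all genes lay lower and 24.5% higher in this way. In SmoM2 they did so for 7 lower genes and for Sox6, which lay higher, against 19.7% and 20.4% of all genes. The 2 comparisons share their wild-type libraries. Without ShhN IUE library 3, the same 6 genes were called in ShhN IUE, with log2 fold changes of -4.58 for Lhx8, -1.36 for Maf, -1.28 for Nxph1 and 0.60 for Sox6 besides those given below, and edgeR adjusted p-values of 0.00246 to 0.0164; Npas1 and Cort, at 0.02 and -0.14, again were not. In bulk tissue, fewer cells of a type and less RNA per cell cannot be told apart.

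**Figure D1:**
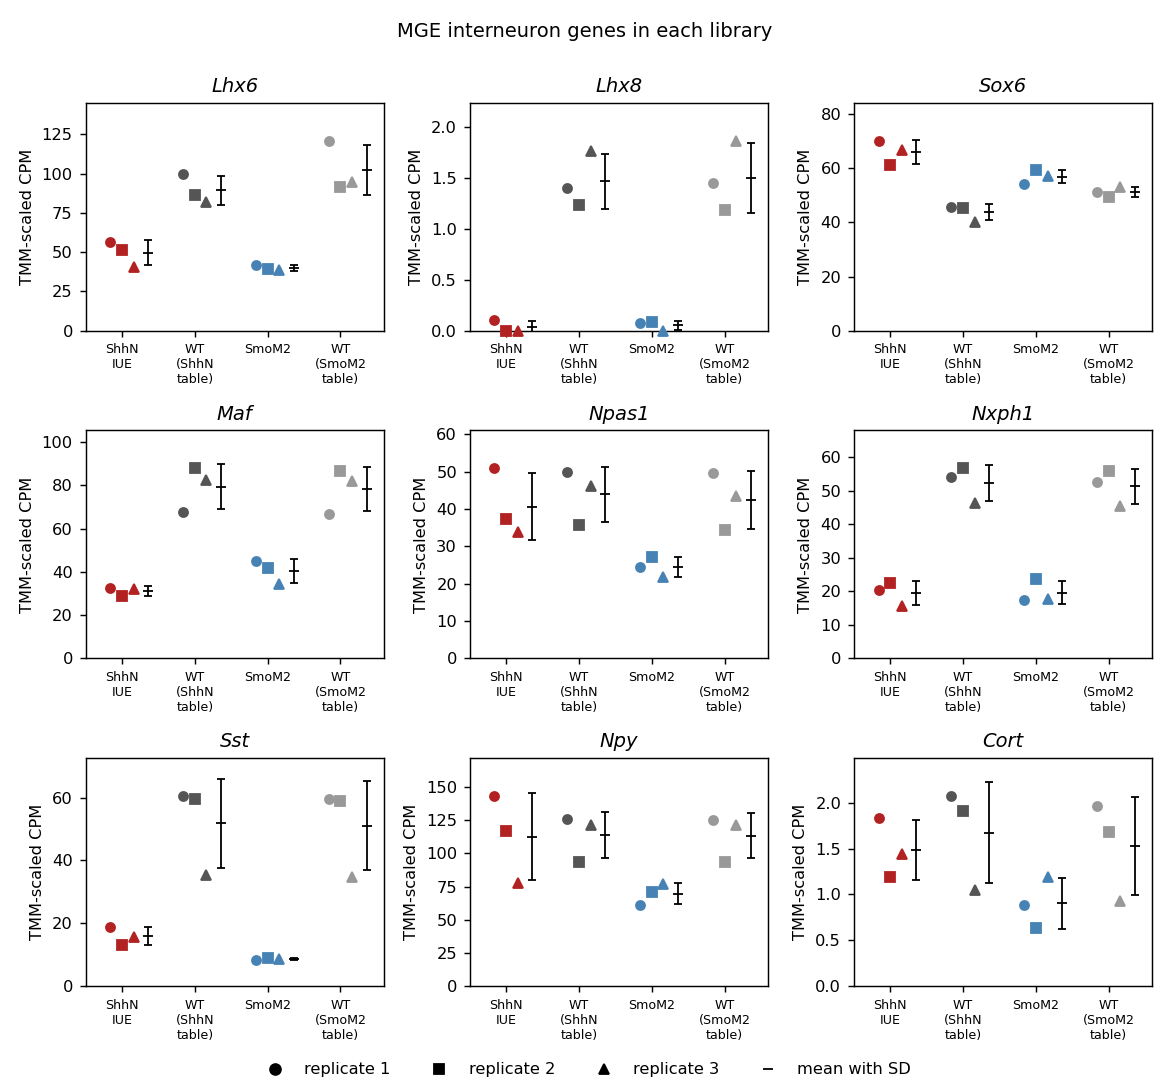
Level of each of the 9 genes in TMM-scaled CPM (vertical axes, from 0) in the 3 libraries of each group, with wild type shown as quantified in each table; symbols are replicates, and the bar beside them is the mean with its SD (n = 3). Lhx6, Lhx8, Maf, Nxph1 and Sst lie below wild type in all 6 intervention libraries, while Npy and Npas1 lie below it in the SmoM2 libraries and overlap it in the ShhN IUE libraries.

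Genes of some other cortical neurons fell beside the 9. Over all genes tested, 17.2% fell and 16.1% rose in ShhN IUE, and 9.29% fell and 9.59% rose in SmoM2. Of 15 tested genes of deep-layer pyramidal neurons, the excitatory cells that project out of the cortex, 10 fell and 0 rose in ShhN IUE, and 9 fell and 2 rose in SmoM2. Their summed level was 990 to 1196 CPM in ShhN IUE, against 1636 to 2112 CPM in wild type, and 1013 to 1105 CPM in SmoM2, against 1611 to 1992 CPM in wild type, with no overlap in either. Both rises in SmoM2 were lost without any 1 SmoM2 library or without wild-type library 1, and with upper quartile scaling. Tle4, a corepressor of corticothalamic neurons, fell by 1.21 ± 0.14 on the log2 scale in ShhN IUE and by 0.94 ± 0.12 in SmoM2 (edgeR adjusted p = 0.00107 and 0.00217). Of 10 tested genes of Cajal-Retzius cells, the early neurons of the cortical surface, 5 fell in ShhN IUE and 8 in SmoM2, with 0 rises in both. These counts were 3 without ShhN IUE library 1 and 5 without SmoM2 library 3. Upper-layer pyramidal genes fell in 3 and rose in 2 of 12 cases in ShhN IUE, not far from the shares of all genes. In SmoM2 they fell in 7 and rose in 1. Of 14 pan-neuronal genes, 5 fell and 1 rose in ShhN IUE, and 3 fell and 2 rose in SmoM2. The part of these neurons, or of neuron content as a whole, in the falls of the 9 genes was not tested.

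Lhx6 encodes the LIM homeodomain factor that MGE daughters need in order to migrate and mature (chr2:36081953-36105408, minus strand, GRCm38). It was at 56.6, 51.7 and 40.9 CPM in the ShhN IUE libraries, against 99.5, 86.4 and 82.2 CPM in wild type. The groups did not overlap, and Lhx6 had a log2 fold change of -0.84 ± 0.15 (SE), with an adjusted p of 0.00473 by edgeR's quasi-likelihood test. With SmoM2, Lhx6 was at 42.0, 39.0 and 38.3 CPM, against 121, 91.7 and 94.5 CPM in wild type. Here too every intervention library was below every wild-type library, with a log2 fold change of -1.36 ± 0.13 and an edgeR adjusted p of 0.000512. Without ShhN IUE library 3 the log2 fold change of Lhx6 in ShhN IUE was -0.71, with an edgeR adjusted p of 0.00938.

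Lhx8 encodes a related LIM homeodomain factor that specifies cholinergic neurons of the basal forebrain, and it was the gene with the lowest counts (chr3:154306294-154330659, minus strand). It had 2, 0 and 0 counts in the ShhN IUE libraries, against 27, 27 and 32 counts in wild type. SmoM2 libraries had 2, 2 and 0 counts, against 28, 26 and 34 counts in wild type. In both comparisons wild type was well above every intervention library. Scaled to library size, the summed ShhN IUE counts were 0.0271 of those in wild type, with an exact 95% interval of 0.00323 to 0.101. The same ratio was 0.0359 for SmoM2, with an interval of 0.00957 to 0.0952; both intervals cover counting error only. Lhx8 passed the test in both comparisons, with edgeR adjusted p-values of 0.00208 in ShhN IUE and 0.00147 in SmoM2.

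Lhx8 marks tissue below the cortex, and so do other genes that moved with it. Among all genes tested, 17.2% fell and 16.1% rose in ShhN IUE, and 9.29% fell and 9.59% rose in SmoM2. Of 18 tested genes of striatal projection neurons, the main neurons of the striatum, 15 fell in ShhN IUE and 16 in SmoM2, with 0 rises in both. Their summed level was 323 to 444 CPM in the ShhN IUE libraries, against 527 to 692 CPM in wild type. In the SmoM2 libraries it was 391.6 to 406 CPM, against 670 to 848 CPM in wild type. Tac1, which encodes the striatal peptide precursor of substance P, averaged 0.371 ± 0.168 CPM in ShhN IUE and 10.8 ± 1.13 CPM in wild type (SD, n = 3 each). It averaged 0.355 ± 0.0960 CPM in SmoM2 and 10.5 ± 1.06 CPM in wild type. Isl1, a LIM homeodomain gene of striatal and cholinergic neurons, fell by 3.57 ± 0.58 on the log2 scale in ShhN IUE and by 3.67 ± 0.45 in SmoM2, with edgeR adjusted p-values of 0.00352 and 0.00168. It had the steepest fall of the 10 tested genes of cholinergic and pallidal neurons, the cells that Lhx8 specifies. Of these 10, 3 fell and 7 were not called in ShhN IUE, while 4 fell, 1 rose and 5 were not called in SmoM2. The 3 falls in ShhN IUE and the 1 rise in SmoM2 were not far from the shares of all genes. The count of falls in ShhN IUE was 6 without ShhN IUE library 3, and the rise in SmoM2 was lost without any 1 SmoM2 library or without wild-type library 1, and with upper quartile scaling or DESeq2. The summed level of this list overlapped wild type, at 313 to 386 CPM in ShhN IUE, against 349 to 373 CPM in wild type, and at 356 to 415 CPM in SmoM2, against 369 to 417 CPM in wild type. No striatal gene of the list was at 0 in a whole group, and how much tissue below the cortex entered each dissection, and its part in the falls of the 9 genes, was not tested.

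Sox6 encodes a SOX factor that acts after Lhx6 in these interneurons and is also made by cortical progenitors and oligodendrocyte precursors (chr7:115470872-116038796, minus strand). It was at 70.2, 61.3 and 66.9 CPM in the ShhN IUE libraries, against 45.7, 45.4 and 40.3 CPM in wild type. All 3 ShhN IUE libraries were above all 3 wild-type libraries, and Sox6 rose by 0.59 ± 0.11 on the log2 scale, with an edgeR adjusted p of 0.00650. With SmoM2, it was at 54.3, 59.2 and 57.3 CPM, against 51.2, 49.2 and 53.0 CPM in wild type. The SmoM2 libraries were again the higher ones without overlap, but the log2 fold change of 0.16, with a 95% interval of -0.05 to 0.36, did not pass the test (edgeR adjusted p = 0.256). The summed wild-type count of Sox6 was 2615 in 1 table and 3042 in the other, and this difference between the tables is of the size of the SmoM2 effect.

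Some genes of the other cells that make Sox6 rose in both interventions, while Sox6 itself passed the test in ShhN IUE only. Over all genes tested, 16.1% rose and 17.2% fell in ShhN IUE, and 9.59% rose and 9.29% fell in SmoM2. Of 14 radial glia genes, 8 rose in ShhN IUE and 6 in SmoM2, and their summed level was 2020 to 2368 CPM in ShhN IUE, against 1453 to 1903 CPM in wild type. In SmoM2 that level was 2277 to 2519 CPM, against 1530 to 1973 CPM in wild type. Oligodendrocyte precursor genes rose in 7 of 11 cases in ShhN IUE, with 1 fall, and in 8 of 12 in SmoM2, with none falling. Without wild-type library 3, 5 radial glia genes rose in ShhN IUE. The part of these cells in the Sox6 level was not tested. Within each library, the ratio of Sox6 to Lhx6 in the deposited FPKM, a level per length and depth, was 0.408, 0.391 and 0.539 in ShhN IUE, against 0.151, 0.173 and 0.162 in wild type. In SmoM2 the ratio was 0.426, 0.4999 and 0.492, against 0.139, 0.177 and 0.185 in wild type. The groups were apart in both tables, and the two-sided exact permutation p was 0.1, the smallest that 3 against 3 libraries can give (0.133 after adjustment over 12 ratio tests).

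Maf encodes a large Maf transcription factor that shapes the balance between somatostatin and parvalbumin interneurons (chr8:115682942-115707794, minus strand). It was at 32.6, 28.7 and 32.1 CPM in the ShhN IUE libraries, against 67.8, 87.8 and 82.6 CPM in wild type. Maf fell by 1.35 ± 0.13 on the log2 scale, with no overlap between the groups and an edgeR adjusted p of 0.000842. With SmoM2, Maf was at 44.8, 41.9 and 34.2 CPM, against 66.9, 86.5 and 81.8 CPM in wild type, a log2 fold change of -0.96 ± 0.14 with an edgeR adjusted p of 0.00322. Maf is also made by microglia and macrophages. The summed level of 14 microglial genes overlapped between the groups, at 154 to 184 CPM in ShhN IUE and 150 to 183 CPM in wild type, and at 149 to 188 CPM in SmoM2 and 149 to 180 CPM in wild type. Single genes of that list did move: 4 rose and 1 fell in ShhN IUE, with a median log2 fold change of 0.65, and 3 rose and 1 fell in SmoM2, with a median of 0.56. The count of rises ranged from 2 to 7 in ShhN IUE and from 0 to 7 in SmoM2 with 1 library left out, and was 7 in both without wild-type library 2. Aif1, a calcium-binding protein of microglia, rose by 2.49 ± 0.35 on the log2 scale in ShhN IUE (edgeR adjusted p = 0.00208) and had a log2 fold change of -0.16 in SmoM2 (edgeR adjusted p = 0.783).

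Npas1, a bHLH-PAS transcription factor of forebrain inhibitory neurons, passed the test in SmoM2 and not in ShhN IUE (chr7:16455721-16476780 in the deposited tables, minus strand). It was at 50.8, 37.4 and 33.7 CPM in the ShhN IUE libraries, against 49.8, 35.8 and 46.2 CPM in wild type. The groups overlapped, and the log2 fold change of -0.11 had a 95% interval of -0.54 to 0.32 (edgeR adjusted p = 0.680). In the SmoM2 libraries Npas1 was at 24.5, 27.2 and 21.7 CPM, against 49.6, 34.3 and 43.4 CPM in wild type. All SmoM2 libraries were below wild type, and Npas1 fell by 0.79 ± 0.15 on the log2 scale, with an edgeR adjusted p of 0.00974. Without SmoM2 library 3 the log2 fold change was -0.70 and the edgeR adjusted p 0.0506.

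Nxph1 encodes neurexophilin 1, a secreted protein made by interneurons (chr6:8948431-9249032, plus strand). It was at 20.4, 22.5 and 15.7 CPM in the ShhN IUE libraries, against 54.3, 56.7 and 46.4 CPM in wild type, and at 17.3, 23.6 and 17.8 CPM in the SmoM2 libraries, against 52.7, 55.8 and 45.5 CPM in wild type. Wild type was the higher group throughout. The fall was of nearly the same size in both, with a log2 fold change of -1.42 ± 0.16 in ShhN IUE (edgeR adjusted p = 0.00101) and -1.39 ± 0.15 in SmoM2 (edgeR adjusted p = 0.000800). The paralogue Nxph3 fell by 1.12 ± 0.19 in ShhN IUE and by 1.32 ± 0.18 in SmoM2, with edgeR adjusted p-values of 0.00454 and 0.00254.

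Sst, the somatostatin gene, was at 18.8, 13.0 and 15.7 CPM in the ShhN IUE libraries, against 60.5, 59.6 and 35.3 CPM in wild type (chr16:23889581-23890844 in the deposited tables, minus strand). Wild-type library 3 was low among the controls but still above every ShhN IUE library. Sst fell by 1.71 ± 0.23 on the log2 scale in ShhN IUE, with an edgeR adjusted p of 0.00186. With SmoM2, it was at 8.18, 8.77 and 8.70 CPM, against 59.6, 59.0 and 34.7 CPM in wild type. The SmoM2 libraries lay close together and far below wild type, with a log2 fold change of -2.58 ± 0.21 and an edgeR adjusted p of 0.000300. Without ShhN IUE library 3 the log2 fold change in ShhN IUE was -1.69.

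Npy encodes neuropeptide Y, which is made by a subset of somatostatin interneurons and by neurogliaform cells, and in this tissue it was the most abundant of the 9 (chr6:49822710-49829507, plus strand). It was at 143, 117 and 77.8 CPM in the ShhN IUE libraries, against 126, 93.7 and 122 CPM in wild type. These groups overlapped fully: the log2 fold change was -0.01, with a 95% interval of -0.51 to 0.48 (edgeR adjusted p = 0.964). With SmoM2, Npy was at 61.2, 71.1 and 76.8 CPM, against 125, 93.6 and 121 CPM in wild type. The SmoM2 libraries were all below wild type, and Npy fell by 0.70 ± 0.14 on the log2 scale, with an edgeR adjusted p of 0.0104. Without ShhN IUE library 3, which had the lowest Npy of the ShhN IUE group, the log2 fold change in ShhN IUE was 0.20 (edgeR adjusted p = 0.368).

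Cort was near the lower end of what could be counted, with 36, 20 and 23 counts in ShhN IUE, against 40, 42 and 19 counts in wild type, and 24, 15 and 31 counts in SmoM2, against 38, 37 and 17 counts in wild type (chr4:149125034-149126763, minus strand). Both interventions overlapped wild type in CPM. The log2 fold change was -0.17 in ShhN IUE, with a 95% interval of -0.99 to 0.65 (edgeR adjusted p = 0.738). In SmoM2 it was -0.76, with a 95% interval of -1.59 to 0.08 (edgeR adjusted p = 0.188), so a change in Cort as large as that of Lhx6 was not resolved at this depth.

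**Figure D2:**
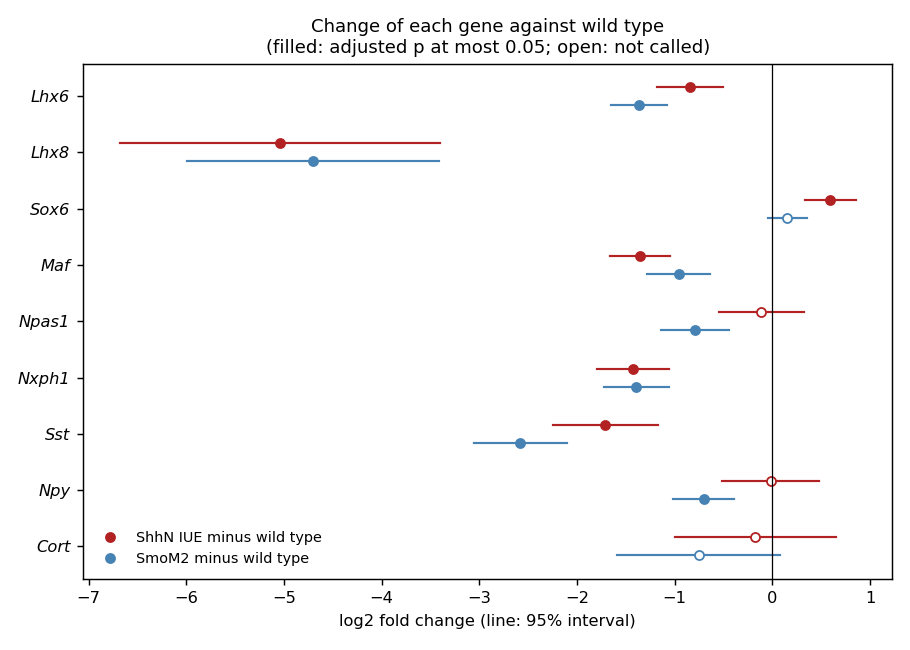
Log2 fold change of each gene against wild type (horizontal axis), ShhN IUE minus wild type in red and SmoM2 minus wild type in blue; lines are 95% intervals from the edgeR fit, and filled points passed an adjusted p of 0.05. Sst, Lhx6, Maf, Nxph1 and Lhx8 lie left of 0 in both comparisons, Sox6 lies right of 0, and Npy and Npas1 lie near 0 in ShhN IUE and left of it in SmoM2.

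Levels can be set between genes on the FPKM scale. In wild type as quantified with ShhN IUE, the order of mean FPKM was Npy (197 ± 25.5), Sst (85.2 ± 24.0), Npas1 (20.6 ± 2.89), Lhx6 (10.3 ± 0.893), Maf (8.17 ± 1.27), Nxph1 (6.83 ± 0.803), Cort (2.44 ± 0.805), Sox6 (1.67 ± 0.131) and Lhx8 (0.364 ± 0.0634). The ranges of mean ± SD overlapped between the neighbours Lhx6 and Maf, Maf and Nxph1, and Cort and Sox6, while Npy, Sst and Npas1 were apart. In ShhN IUE the order began Npy (201 ± 55.8), Sst (26.8 ± 4.91) and Npas1 (19.7 ± 4.13), so Sst came close to Npas1. In SmoM2 the same 3 genes were at 124 ± 14.0, 14.4 ± 0.485 and 11.8 ± 1.25 FPKM. Nxph1 and Sox6 stood level in ShhN IUE, at 2.61 ± 0.417 and 2.60 ± 0.192 FPKM. The deposited FPKM imply a length of 25851 bases for Sox6 and 8513 bases for Lhx6, beyond the 14832 and 4805 exonic bases in GENCODE M21, while those of Npas1 (2091 against 3009 bases) and Sst (599 against 721 bases) are shorter. The order therefore rests on the lengths behind the deposited FPKM, and ratios of a gene pair between libraries are not touched by this.

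Within libraries, Npy stood higher relative to Sst in both interventions than in wild type. The ratio of Npy to Sst in FPKM was 8.06, 9.50 and 5.24 in the ShhN IUE libraries, against 2.20, 1.66 and 3.65 in wild type. In the SmoM2 libraries it was 7.92, 8.57 and 9.34, against 2.22, 1.68 and 3.69 in wild type. Every intervention library was above every wild-type library, by 3.11-fold in ShhN IUE and 3.58-fold in SmoM2 (ratio of geometric means). The two-sided exact permutation p was 0.1 in each, the smallest that 3 against 3 can give, and 0.133 after adjustment over the 12 ratio tests. The ratio of Lhx6 to Sst was also above wild type in both tables, 1.78-fold in ShhN IUE and 2.27-fold in SmoM2, with the same exact p of 0.1. The ratio of Nxph1 to Lhx6 was 0.668-fold that of wild type in ShhN IUE (exact permutation p = 0.1) and 0.968-fold in SmoM2 (exact permutation p = 0.7).

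**Figure D3:**
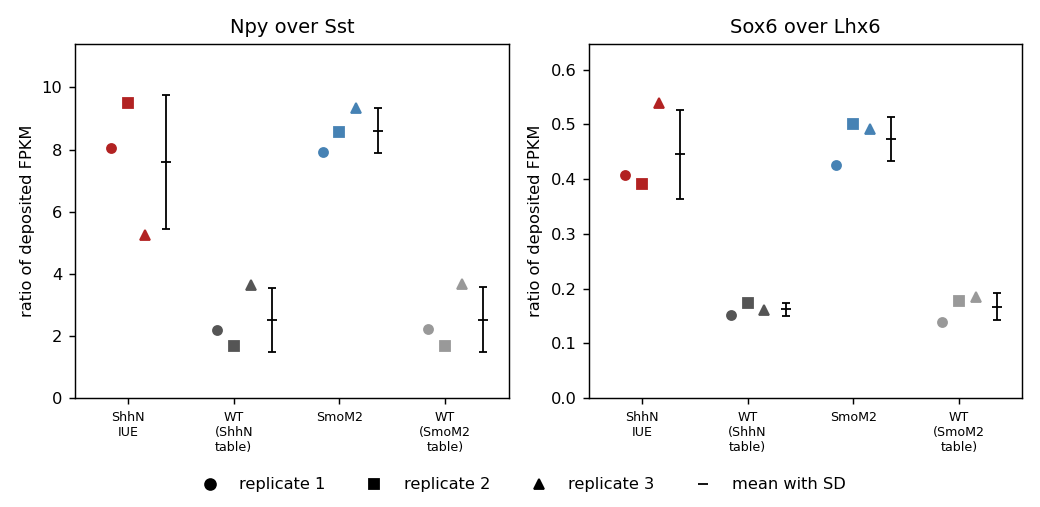
Ratio of deposited FPKM between gene pairs (vertical axes, from 0) in each library, by group; symbols are replicates and the bar is the mean with its SD (n = 3). Npy over Sst and Sox6 over Lhx6 are higher in every intervention library than in any wild-type library.

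The interventions were then set against each other over the 12349 tested genes whose wild-type counts agreed between the tables, which left out Lhx6, Sox6 and Cort. Of the 6 genes tested, 3 were lower in SmoM2 than in ShhN IUE and 0 were higher, where 8.11% of all genes were lower and 8.44% higher. The log2 difference of SmoM2 minus ShhN IUE was -0.90 ± 0.21 for Sst (edgeR adjusted p = 0.0162), -0.75 ± 0.18 for Npas1 (edgeR adjusted p = 0.0181) and -0.71 ± 0.20 for Npy (edgeR adjusted p = 0.0366). All 3 calls were lost without ShhN IUE library 1, without SmoM2 library 1 and without SmoM2 library 3, with edgeR adjusted p-values of 0.0551 to 0.155. Those of Sst and Npy were also lost without SmoM2 library 2 (edgeR adjusted p = 0.0566 and 0.102), and that of Npy without ShhN IUE library 2 (edgeR adjusted p = 0.0755). Without ShhN IUE library 3, the library that stood apart in Shh, the differences were -0.92 for Sst, -0.87 for Npas1 and -0.92 for Npy, with edgeR adjusted p-values of 0.0269, 0.0113 and 0.00422. Maf did not pass the test, with a log2 difference of 0.36 and a 95% interval of 0.07 to 0.65 (edgeR adjusted p = 0.0867), but did so without wild-type library 1 (edgeR adjusted p = 0.0462). For Nxph1 the difference was -0.01, with an interval of -0.37 to 0.35, and the counts of Lhx8 were too few to place a difference.

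The wider lineage moved in both directions. Of 23 tested genes of the MGE lineage outside the 9, 13 fell and 3 rose in ShhN IUE, and 9 fell and 5 rose in SmoM2. Among all genes tested, 17.2% fell and 16.1% rose in ShhN IUE, and 9.29% fell and 9.59% rose in SmoM2. The rises in ShhN IUE were thus not far from the share of all genes. The median log2 fold change of the 23 was -0.71 in ShhN IUE and -0.35 in SmoM2, against -0.00 and -0.01 over all genes. Without SmoM2 library 1, 3 of them rose in SmoM2. The falls took in Calb1, which encodes the calcium-binding protein calbindin, with log2 fold changes of -2.68 ± 0.43 in ShhN IUE and -2.33 ± 0.40 in SmoM2. They also took in Zfhx3, a homeobox factor, with -1.97 ± 0.32 in ShhN IUE and -2.15 ± 0.20 in SmoM2, and Lmo3, a LIM-only cofactor, with -1.36 ± 0.14 in ShhN IUE and -0.91 ± 0.17 in SmoM2. The edgeR adjusted p-values of these 3 genes ran from 0.000495 to 0.00955. Lmo3 is also counted among the deep-layer pyramidal genes above, so its fall is not particular to the MGE lineage list.

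Crhbp, which encodes a binding protein for corticotropin-releasing hormone found in somatostatin interneurons, had 1, 0 and 0 counts in the ShhN IUE libraries, against 33, 32 and 15 counts in wild type. SmoM2 libraries had 3, 4 and 1 counts, against 33, 32 and 15 counts in wild type. Scaled to library size, the summed counts were 0.0146 of wild type in ShhN IUE (exact 95% interval 0.000364 to 0.0835) and 0.0790 in SmoM2 (0.0330 to 0.163). Nos1, the neuronal nitric oxide synthase of long-range somatostatin cells, was singled out after its values were seen, because Npy is made in the same cells. It was at 98.3, 80.8 and 49.3 CPM in ShhN IUE, against 185, 135 and 189 CPM in wild type, and at 53.1, 64.3 and 70.7 CPM in SmoM2, against 198, 144 and 189 CPM in wild type. Nos1 was lower in every intervention library. It fell by 1.15 ± 0.24 in ShhN IUE and by 1.50 ± 0.15 in SmoM2 on the log2 scale (edgeR adjusted p = 0.00981 and 0.000716). Npy overlapped wild type in ShhN IUE. Which cells the RNA of Nos1 and Npy came from was not tested, so these genes may not report the same cells.

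Nkx2-1, the founding factor of the MGE, was low in cortex and did not pass the test. It was at 1.27, 1.13 and 5.45 CPM in ShhN IUE libraries 1, 2 and 3, against 2.96, 3.91 and 4.07 CPM in wild type. The third ShhN IUE library, the one with the most Shh, was the highest of the 6, and the other two were below wild type. Without it, Nkx2-1 had a log2 fold change of -1.59 with an edgeR adjusted p of 0.0128, and with it -0.49 and 0.543. In SmoM2 it was at 4.15, 4.45 and 3.45 CPM, against 2.94, 3.91 and 4.05 CPM in wild type, with overlap and an edgeR adjusted p of 0.686. Satb1, a chromatin organiser that promotes the somatostatin fate, had a log2 fold change of 0.01 in ShhN IUE (edgeR adjusted p = 0.924) and rose by 0.50 ± 0.11 in SmoM2 (edgeR adjusted p = 0.0177), a call lost without SmoM2 library 1 (edgeR adjusted p = 0.0636). The summed wild-type count of Satb1 was 12569 as quantified with ShhN IUE and 10802 as quantified with SmoM2. These counts did not agree between the tables, so Satb1 was not tested between the interventions. Pvalb was listed at 0 in the SmoM2 libraries and did not pass the filter on low counts.

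The largest rise in the lineage list was that of St18 in both comparisons. St18, a zinc finger factor of newborn MGE neurons, rose by 1.94 ± 0.20 in ShhN IUE and by 1.81 ± 0.18 in SmoM2 on the log2 scale. Sp9, a zinc finger factor of newborn ganglionic eminence neurons, rose by 1.14 ± 0.21 in ShhN IUE and by 1.55 ± 0.15 in SmoM2. The edgeR adjusted p-values of both genes ran from 0.000641 to 0.00545.

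**Figure D4:**
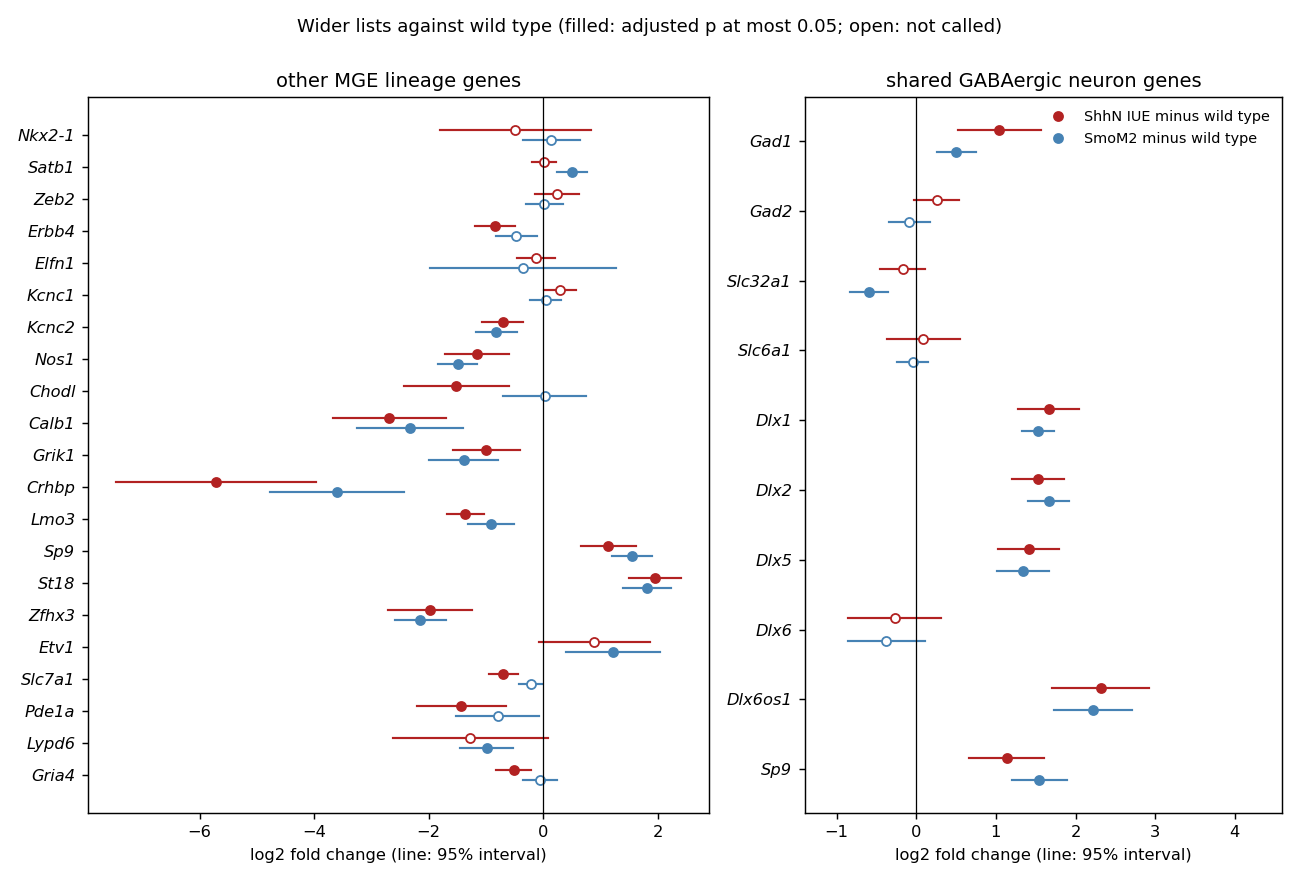
Log2 fold change against wild type (horizontal axes) for the plotted genes of the MGE lineage outside the 9 (left) and of the list shared by GABAergic neurons (right), ShhN IUE minus wild type in red and SmoM2 minus wild type in blue; lines are 95% intervals and filled points passed an edgeR adjusted p of 0.05. Dlx1, Dlx2, Dlx5 and Dlx6os1 lie right of 0 in both comparisons, while Calb1, Crhbp and Zfhx3 lie left of it.

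Genes shared by all forebrain GABAergic neurons mostly rose. Of 11 tested, 7 rose and 0 fell in ShhN IUE, with a median log2 fold change of 1.04, and 7 rose and 1 fell in SmoM2, with a median of 0.74. Among all genes tested, 16.1% rose and 17.2% fell in ShhN IUE, and 9.59% rose and 9.29% fell in SmoM2. Dlx1, a homeobox factor that starts the GABAergic programme, averaged 402 ± 97.3 CPM in ShhN IUE and 127 ± 6.06 CPM in wild type, and 387 ± 18.2 CPM in SmoM2 and 134 ± 10.2 CPM in wild type (SD, n = 3 each). Dlx2, its neighbour and partner, rose by 1.53 ± 0.14 in ShhN IUE and by 1.66 ± 0.11 in SmoM2 on the log2 scale, with edgeR adjusted p-values of 0.000714 and 0.000159. Gad1, the main enzyme of GABA synthesis, rose by 1.04 ± 0.23 in ShhN IUE and by 0.50 ± 0.11 in SmoM2 (edgeR adjusted p = 0.0109 and 0.0147), the SmoM2 call being lost without SmoM2 library 2 or 3. Its sister enzyme Gad2 did not pass the test in either, with log2 fold changes of 0.25 and -0.09. Slc32a1, the vesicular GABA transporter, had a log2 fold change of -0.17 in ShhN IUE (edgeR adjusted p = 0.299) and fell by 0.59 ± 0.10 in SmoM2 (edgeR adjusted p = 0.00664).

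Markers of interneurons from the caudal ganglionic eminence (CGE), the other large source of cortical interneurons, were mixed. Among all genes tested, 16.1% rose and 17.2% fell in ShhN IUE, and 9.59% rose and 9.29% fell in SmoM2. Of 14 CGE genes tested, 3 rose and 6 fell in ShhN IUE, and 3 rose and 3 fell in SmoM2. The rises in ShhN IUE were not far from the share of all genes. The count of falls was 2 or 3 in ShhN IUE without ShhN IUE library 1 or 2 or any wild-type library, and in SmoM2 it was 0 or 1 without any 1 SmoM2 library or without wild-type library 1 or 2. Sp8, a zinc finger factor of the CGE and of olfactory bulb interneurons, averaged 99.9 ± 23.8 CPM in ShhN IUE and 12.9 ± 1.97 CPM in wild type, and 95.01 ± 3.84 CPM in SmoM2 and 12.9 ± 1.98 CPM in wild type. Prox1, a homeobox factor of CGE interneurons, rose by 0.95 ± 0.25 in ShhN IUE, a call lost without wild-type library 1 or 3, and by 0.89 ± 0.16 in SmoM2 (edgeR adjusted p = 0.0205 and 0.00731). Among the falls was Cck, the cholecystokinin gene, which pyramidal neurons also express and which fell by 1.21 ± 0.19 on the log2 scale in ShhN IUE (edgeR adjusted p = 0.00298), a call kept without any 1 library. In SmoM2 Cck fell by 0.51 ± 0.15 (edgeR adjusted p = 0.0490), a call lost without any 1 SmoM2 library or without wild-type library 1 or 2. Nr2f2, a nuclear receptor of CGE cells, fell by 0.88 ± 0.28 in ShhN IUE (edgeR adjusted p = 0.0433), a call that leaving out library 1 or 2 of ShhN IUE, or library 2 or 3 of wild type, each ended. Its log2 fold change in SmoM2 was -0.19 (edgeR adjusted p = 0.673). Adarb2, a defining gene of CGE interneurons, did not pass the test, with log2 fold changes of 0.03 in ShhN IUE and 0.12 in SmoM2 (edgeR adjusted p = 0.922 and 0.463).

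The receptors of the peptides are carried mostly by other neurons. Of 10 tested genes for receptors of the secreted products, 3 fell and 1 rose in ShhN IUE, not far from the 17.2% and 16.1% of all genes, and 4 fell and 1 rose in SmoM2, against 9.29% and 9.59% of all genes. The count of falls in SmoM2 was 1 or 2 without any 1 SmoM2 library or without wild-type library 1 or 2, and 2 genes rose in ShhN IUE without ShhN IUE library 2 and in SmoM2 without wild-type library 2. Sstr2, a somatostatin receptor, averaged 16.9 ± 2.94 CPM in ShhN IUE and 29.5 ± 5.84 CPM in wild type, and 10.9 ± 0.943 CPM in SmoM2 and 29.6 ± 5.86 CPM in wild type. It fell by 0.80 ± 0.19 in ShhN IUE and by 1.44 ± 0.16 in SmoM2 on the log2 scale (edgeR adjusted p = 0.0149 and 0.00119), and the ShhN IUE call was lost without ShhN IUE library 1 (edgeR adjusted p = 0.0535). Sstr1, another somatostatin receptor, rose by 0.59 ± 0.12 in ShhN IUE and by 0.80 ± 0.13 in SmoM2 (edgeR adjusted p = 0.00747 and 0.00527). Npy1r, a receptor of neuropeptide Y, did not pass the test, with log2 fold changes of 0.35 in ShhN IUE and 0.45 in SmoM2 (edgeR adjusted p = 0.117 and 0.0582), and it did so in SmoM2 without wild-type library 2 (edgeR adjusted p = 0.0251).

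Genes that guide the tangential migration of interneurons moved in both directions. Of 14 tested, 4 rose and 3 fell in ShhN IUE, where 16.1% of all genes rose and 17.2% fell, shares not far from this count. In SmoM2, 5 rose and 4 fell, where 9.59% of all genes rose and 9.29% fell. The count of rises in SmoM2 was 2 or 3 without any 1 SmoM2 library or without wild-type library 2. Cxcr4, the chemokine receptor that MGE cells use along their route, rose by 0.67 ± 0.18 on the log2 scale in ShhN IUE (edgeR adjusted p = 0.0248), a call lost without ShhN IUE library 1 or 3, and had a log2 fold change of 0.17 in SmoM2 (edgeR adjusted p = 0.50). Erbb4, the neuregulin receptor of MGE interneurons, averaged 70.7 ± 11.04 CPM in ShhN IUE and 127 ± 18.2 CPM in wild type, a fall of 0.84 ± 0.15 on the log2 scale (edgeR adjusted p = 0.00543). In SmoM2 it averaged 90.1 ± 17.5 CPM and in wild type 125 ± 17.8 CPM, and did not pass the test (edgeR adjusted p = 0.0718), though it did without SmoM2 library 2 (edgeR adjusted p = 0.0332).

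Pattern likeness was measured as Pearson's r of log2(CPM + 1) over the 9 libraries, which share depth and group structure, and is given as a description. Among 12033 other genes with a mean of at least 5 CPM, those most like Lhx6 were Nt5dc3 (r = 0.986), Tagap1 (0.982), Stk32c (0.982), Grin1 (0.980) and Plxnd1 (0.980). Plxnd1, a semaphorin receptor, averaged 138 ± 28.3 CPM in ShhN IUE and 302 ± 28.9 CPM in wild type, and 87.6 ± 3.71 CPM in SmoM2 and 299 ± 27.1 CPM in wild type. The wild-type counts of Lhx6 and Sox6 differ between the tables, and each wild-type value here is the mean of both. Over the 6 libraries of a single table, the r of Lhx6 with these 5 genes was 0.967 to 0.996. Of the other 8 genes, Lhx6 ran closest to Sst (r = 0.959), Nxph1 (0.932) and Lhx8 (0.928) over the 9 libraries. Over the libraries of the ShhN IUE table alone, Nxph1 came first (0.973), ahead of Sst (0.932), and over those of the SmoM2 table Lhx8 (0.966) came ahead of Nxph1 (0.954), so the order changed with the table. Npy ran with Npas1 (r = 0.906, and 0.894 and 0.922 within the ShhN IUE and SmoM2 tables), and Sox6 ran against Maf (r = -0.892, and -0.942 and -0.858).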

How the data were processed

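RNA of dissected newborn mouse cortex was sequenced in 9 libraries, 3 a group, with group and replicate read from each title. The authors deposited 2 tables, each holding 1 intervention and the same wild-type libraries. Per the file headers, these give a read count and an FPKM value for each gene and library, and a p-value and q-value of the authors' own comparison, used here only as a check. The builds mm10 and GRCm38.p4 and the tools HISAT2, StringTie and edgeR are named, per the submitters' processing notes. Use of strand is not given in the sources, so reads of Maf and Sox6 cannot be told apart from those of antisense genes that overlap them.

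Counts were tested in R 4.3.3 with edgeR 4.0.16 (quasi-likelihood F test, TMM scaling, default expression filter, Benjamini-Hochberg adjustment over all genes tested, threshold 0.05), within each table. SE is the fold change on the log2 scale over the root of F. For SmoM2 against ShhN IUE, all 9 libraries were fitted over genes whose wild-type counts, with 5 added, agreed within 0.1 on the log2 scale (16195 genes), each wild-type count being the mean of its 2 deposited values. CPM are per 1000000 counts after TMM scaling. Alternatives were other scalings, filters and tolerances, DESeq2 1.42.0, voom of limma 3.58.1, a replicate block, other sets of genes and libraries, and leaving out each library. The tests were checked on simulated counts.

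The 9 genes, the 16 other gene lists, the gene pairs and the rule for named genes were chosen with earlier results of these data known. Named are the 9 genes, up to 3 genes per list with the smallest adjusted p in either comparison with wild type, a fixed set of 19 lineage, receptor and cell type genes, and the 5 genes most like Lhx6; of these the text describes those that bear on the 9 genes, Chat was not tested, and some genes that count in the lists are not reported here by name.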

Additional observations from a re-analysis of the deposited data

Results flagged for a closer look

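The difference between the interventions was itself tested for 6 of the 9 genes, in 1 edgeR quasi-likelihood fit of all 9 libraries. Of these 6, 3 differed, while Lhx6, Sox6 and Cort were not tested. The log2 difference of SmoM2 minus ShhN IUE was -0.90 for Sst, -0.75 for Npas1 and -0.71 for Npy. These calls rest on few libraries, as the losses without single libraries given above show. The same test also called Slc32a1, the vesicular GABA transporter, with a log2 difference of -0.47, Cxcr4, the chemokine receptor, with -0.57, and Sstr2, the somatostatin receptor, with -0.65 (edgeR adjusted p = 0.0135, 0.0323 and 0.0302). The call on Slc32a1 was lost without ShhN IUE library 1 or SmoM2 library 3. That on Cxcr4 was lost without ShhN IUE library 1 or 3 or any SmoM2 library, and that on Sstr2 without ShhN IUE library 1 or 2 or any SmoM2 library.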

How the results depend on the processing

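The replicate numbers did not pair the libraries: the correlations of same-numbered deviations were 0.278, -0.322 and -0.0632 for ShhN IUE with wild type, -0.121, -0.169 and 0.0554 for SmoM2 with wild type, and -0.139, 0.0945 and 0.00767 for SmoM2 with ShhN IUE. With the replicate block, 3962 genes were called in ShhN IUE against wild type, 2468 in SmoM2 against wild type and 1521 in SmoM2 against ShhN IUE, and 6, 7 and 2 of the 9 genes, Npy being lost in the last (edgeR adjusted p = 0.0734). The counts of genes called were 5380, 3112 and 2043 in full, and 3251 to 4624, 1334 to 3010 and 838 to 2341 with 1 library left out, where fewer samples were fitted. The counts among the 9 genes were 6, 7 and 3 in full, and 6 to 6, 6 to 7 and 0 to 4 with 1 library left out. In SmoM2 against ShhN IUE, Lhx6, Sox6 and Cort were left out of all these counts. Over all alternatives run, each of the 9 genes kept its direction wherever it was called. At a tolerance of 0.2 on the wild-type counts, Lhx6 and Cort could be tested between the interventions and were not called, with log2 differences of -0.33 and -0.73 (edgeR adjusted p = 0.116 and 0.188). Lhx8 and Cort are limited by depth, with at most 42 counts in any library.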
